A study of Mus musculus with 64 samples.

Results

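The NF-κB and TNF response genes described here are 10 genes: the cytokine *Tnf*, the transcription factor subunits *Nfkb1*, *Nfkb2*, *Rela* and *Relb*, the regulators *Nfkbia*, *Tnfaip3* and *Bcl3*, and the TNF-inducible genes *Tnfaip2* and *Traf1*. They were chosen by symbol, with earlier results of these data known. They are 10 of the 25239 genes in the count table, and all 10 were found. Their levels are given as CPM, read counts scaled by the size of the library, in microglia sorted from naive retinas and from retinas at day 12 or day 28 after AAV2.

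The study asked how retinal microglia respond to an adeno-associated virus over time, in both sexes and at 3 ages. The mice were *Cx3cr1CreER:R26-tdTomato* heterozygotes on C57BL/6J, in which tamoxifen eye drops switched on the red protein tdTomato in cells using the *Cx3cr1* promoter, and naive mice carried the same alleles and had the same drops. Treated eyes had received an intravitreal injection (into the gel of the eye) of 1e10 genome copies of an AAV2 capsid carrying no protein-coding transgene; its genome held a short sequence that inhibits the DNA sensor TLR9. Naive eyes were not injected, and no vehicle-injected eye is among these libraries, so the vector and the injection cannot be told apart. Each library was made from 600 tdTomato-positive cells sorted from 1 retina. The libraries used were 7 naive, 8 day 12 and 7 day 28 at 3 months, 5, 7 and 7 at 9 months, and 7, 7 and 7 at 18 months, 62 in all with females and males in every group. By the study's methods the opposite eye of each mouse went to flow cytometry or staining, so a library stands for 1 mouse and the p-values measure the spread between mice.

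NF-κB is a family of paired transcription factors that wait in the cytoplasm, bound by IκB proteins, until a signal such as TNF or a microbial product releases them to the nucleus. In the canonical arm RELA pairs with the p50 product of *Nfkb1*, and in the slower non-canonical arm RELB pairs with the p52 product of *Nfkb2*. Several of the genes that NF-κB switches on encode its own brakes, which is why *Nfkbia* and *Tnfaip3* are widely read as signs that the pathway is active, and microglia are among the main sources of TNF in the retina.

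Library totals ran from 1468478 to 9836173 counts (median 4188992), so 3 counts, the least taken as measurable, stood for 0.365 to 2.1 CPM. Markers of the sort moved with the day. The summed level of 10 microglia markers had medians of 39700, 38100 and 39200 CPM in naive libraries at 3, 9 and 18 months and of 18900, 12500 and 15300 CPM at day 12, where 9, 9 and 8 of the 10 were lower. No microglia marker was at 0 throughout any group. The T cell list, of which 7 of 8 genes are in the table, ran from 0 to 25, 0 to 5.29 and 0 to 158 CPM in naive libraries and from 55 to 338, 50 to 163 and 1.57 to 388 CPM at day 12, with 6 of 6, 7 of 7 and 4 of 7 tested genes higher. The 6 monocyte markers had medians of 10.9, 16.6 and 26.1 CPM in naive libraries and of 55.8, 277 and 212 CPM at day 12. The 5 Müller glia markers had naive medians of 6000, 7360 and 6790 CPM and day 12 medians of 23500, 5960 and 7580 CPM, the median at day 12 being above the naive range at 3 months alone. Their day 28 medians were 27900, 20400 and 38000 CPM. The list holds *Rlbp1*, *Glul*, *Slc1a3*, *Apoe* and *Dkk3*. The sum does not show which of them moved, so it is not a measure of Müller glia RNA alone. In these bulk libraries fewer microglia among the sorted cells and less marker RNA per microglial cell cannot be told apart, and the part of these markers in the results below was not tested. In 3 day 12 libraries (9-month male 2 and 18-month females 1 and 2) the microglia sum was 31000 to 37300 CPM, against 8950 to 22900 CPM in the other 19 and 31800 to 52700 CPM in the 19 naive libraries. Without these 3 libraries the members called at day 12 at 9 and 18 months were the same as with them. In edgeR fits without the 3, *Bcl3* gave 2.92 and 2.51 on the log2 scale (adjusted p = 0.00103 and 0.000703) and *Tnf* 1.51 and 2.30 (adjusted p = 0.00275 and 0.000116). The 3 were picked after seeing the data as the day 12 libraries nearest to naive by these markers, so their omission favours such calls.

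Per kilobase of exon, the genes differed widely in naive microglia. *Nfkbia* was by far the highest of the 10 at 141 ± 32.1 CPM per kb (mean ± SD, n = 19). *Nfkb1* at 19.8 ± 5.16, *Rela* at 19.2 ± 8.54, *Tnf* at 10.7 ± 5.63 and *Tnfaip2* at 10.4 ± 6.98 CPM per kb came next, and the SDs of *Nfkb1* and *Rela* overlap, as do those of *Tnf* and *Tnfaip2*. *Relb* stood at 7.42 ± 4.32, *Tnfaip3* at 5.96 ± 2.02, *Bcl3* at 2.88 ± 2.02 and *Nfkb2* at 2.42 ± 2.75 CPM per kb. *Traf1* was close to absent at 0.087 ± 0.156 CPM per kb. At day 12 (n = 22) *Tnf* at 27.3 ± 14.5 CPM per kb was above *Nfkb1* at 19.9 ± 4.66 in its mean, although their SDs overlap, and *Bcl3* had reached 13.5 ± 6.97 CPM per kb.

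At day 12 the 10 genes moved upward or did not pass the test. In each comparison of a day with naive, the differences within females and within males were averaged in edgeR's quasi-likelihood test, and p-values were adjusted over all genes tested by the Benjamini-Hochberg method. At 3 months 6 of 10 members rose and 0 fell, against 13.1% of all 12002 genes higher and 10.7% lower. At 9 months 6 of 10 rose and 0 fell, against backgrounds of 8.68% and 6.11%, and at 18 months 4 of 10 rose and 0 fell, against 8.94% and 5.48%. The median log2 fold change over the 10 was 0.77, 1.29 and 0.55 at the successive ages, beside medians of -0.02, 0.04 and 0.04 over all genes. Since the members were chosen with earlier results of these data known, an excess over all genes is no independent support. *Bcl3* and *Traf1* rose at every age, *Tnf* at 9 and 18 months, *Nfkbia* at 3 and 18 months, and *Nfkb2*, *Relb* and *Tnfaip2* at 3 and 9 months. *Traf1* was scarce in naive libraries and passed the filter on low counts through its treated ones, so its place in these counts and medians is no separate support. *Rela*, *Nfkb1* and *Tnfaip3* passed at no age. Changes beyond 2-fold, tested against that size (glmTreat), were called for *Bcl3* at 3 months (adjusted p = 0.0262) and 9 months (adjusted p = 0.0119) and for *Tnf* at 18 months (adjusted p = 0.0492), 1 member at each age, beside 4.64%, 3.93% and 3.01% of all genes. At 18 months *Bcl3* missed that test (adjusted p = 0.0525). With 1 library left out in turn, the count beyond 2-fold was 0 in 15 of 21 fits and 2 in 3 at 18 months, 0 in 3 of 22 at 3 months (without day 12 male 4, naive male 2 or naive male 3) and 0 in 2 of 19 at 9 months (without either naive male).

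**Figure D1:**
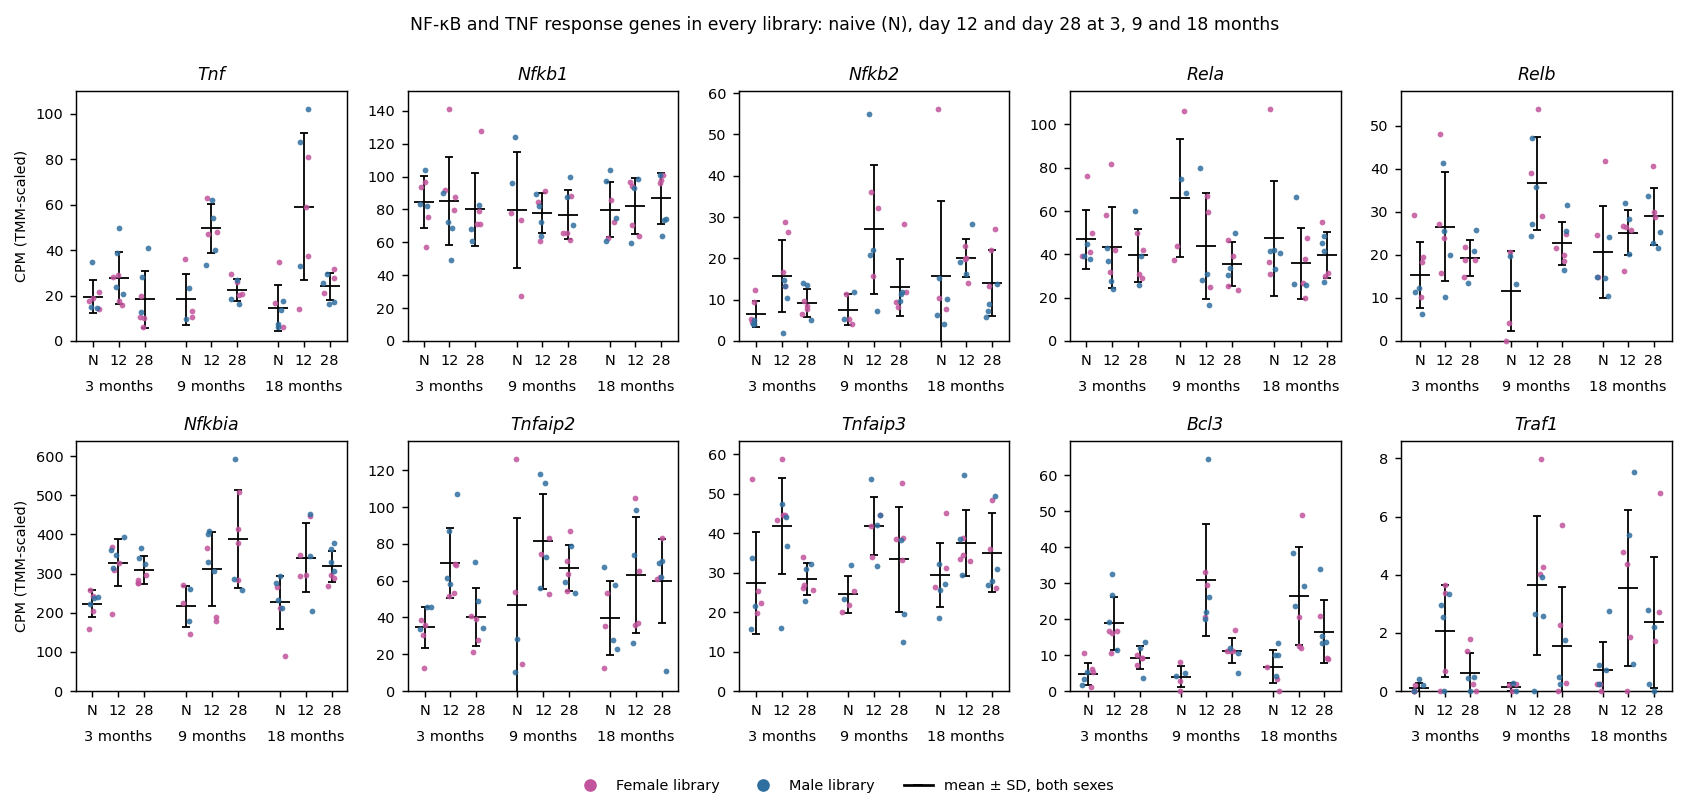
CPM of each of the 10 genes (y axis) in every female and male library (points) by age and day, with the mean and SD of each group; lower error bars that would pass below 0 are cut at 0. *Bcl3* at day 12 lies above all naive libraries at 3 and 9 months, and the *Nfkb1* group means stay between 76.9 and 86.9 CPM.

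*Tnf*, the founding cytokine of the TNF superfamily (chr17:35199381-35202007, minus strand, GRCm38), changed little at 3 months and more at the older ages. At 3 months it ran from 13.9 to 34.9 CPM (median 17.8) in naive libraries and from 15.7 to 49.7 CPM (median 25.9) at day 12, with 2 of 8 above the highest naive library and a log2 fold change of 0.45 (SE 0.28, adjusted p = 0.275). At 9 months the naive libraries held 36.1, 10.6 and 13 CPM in females and 23.1 and 9.5 CPM in males. The 7 day 12 libraries at that age held 33.4 to 62.8 CPM (median 47.8), 6 of them above every naive one. *Tnf* rose there by a log2 fold change of 1.45 (SE 0.33, adjusted p = 0.00402), or 2.72-fold. At 18 months it rose 4.07-fold, from a median of 13.8 CPM (6.14 to 34.8) to 59 CPM (14.1 to 102), with a log2 fold change of 2.03 (SE 0.39, adjusted p = 0.00112). The spread at day 12 was widest at this age, and the lowest value, 14.1 CPM, came from 1 of the 3 libraries with naive-level microglia markers. Within each of the 2 collection days, each of which holds naive and treated libraries of both sexes at every age, the 18-month log2 difference was 1.97 and 1.98. At 9 months it was 0.72 and 2.13 on the 2 days, and at 3 months 0.82 and 0.14.

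The windows of 250 bases before the annotated RefSeq start (GRCm38.p6) were searched for the κB consensus, the 10-base element that NF-κB dimers bind, on both strands. Such windows were at hand for 8 of the 10 members, *Nfkb1* and *Relb* being the exceptions. A match was found in 4 of the 8 genes, *Nfkb2*, *Nfkbia*, *Tnfaip2* and *Tnfaip3*, and 5.67% of the 27025 genes with such a window hold one. The windows of *Bcl3* and *Tnf*, the members called beyond 2-fold at day 12, are shown beside that of *Nfkbia*, the most abundant member. The first 2 hold no match and the last holds 1. Sites further from the start, or departing from the consensus, were not searched for, so *Bcl3* and *Tnf* are not shown to lack them. For *Bcl3* the first 235 bases are printed, since the rest of its window lies inside the annotated gene. Each runs 5′ to 3′ on the strand of its gene, and capitals mark the match. The stretches lie at chr12:55492648-55492897 for *Nfkbia*, at chr7:19822771-19823005 for *Bcl3* and at chr17:35202008-35202257 for *Tnf*, all on the minus strand and ending at the base before the annotated gene.
Nfkbia: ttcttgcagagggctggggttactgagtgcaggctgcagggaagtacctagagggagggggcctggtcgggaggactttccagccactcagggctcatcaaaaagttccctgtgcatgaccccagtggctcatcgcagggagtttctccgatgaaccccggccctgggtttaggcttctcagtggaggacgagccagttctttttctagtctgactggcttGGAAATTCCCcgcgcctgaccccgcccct
Bcl3: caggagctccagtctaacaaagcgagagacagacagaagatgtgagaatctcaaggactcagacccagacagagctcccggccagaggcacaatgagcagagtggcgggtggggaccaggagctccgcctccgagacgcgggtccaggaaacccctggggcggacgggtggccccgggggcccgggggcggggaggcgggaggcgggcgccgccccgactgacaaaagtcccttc
Tnf: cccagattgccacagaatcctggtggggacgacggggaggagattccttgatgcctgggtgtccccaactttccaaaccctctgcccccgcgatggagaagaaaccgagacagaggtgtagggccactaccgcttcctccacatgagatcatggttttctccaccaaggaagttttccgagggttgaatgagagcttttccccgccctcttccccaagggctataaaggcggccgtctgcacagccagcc

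The other matches are given as 30 bases around each. In *Nfkb2*, the precursor of the non-canonical subunit, there are 3, of which the first reads the same on both strands. They lie at chr19:46304688-46304717, chr19:46304707-46304736 and chr19:46305695-46305724 on the plus strand, the last before an alternative start. The *Tnfaip2* stretch is at chr12:111442627-111442656 (plus) and that of *Tnfaip3* at chr10:19015411-19015440 (minus). All of these stretches lie before a RefSeq start but inside the gene as GENCODE annotates it.
Nfkb2 first: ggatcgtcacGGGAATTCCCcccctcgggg
Nfkb2 next: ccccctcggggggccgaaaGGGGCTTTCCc
Nfkb2 last: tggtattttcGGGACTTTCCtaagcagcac
Tnfaip2: gactattttaGGAGGGCCCCtccagggtcg
Tnfaip3: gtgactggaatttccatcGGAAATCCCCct

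Of the subunit genes, *Nfkb2* and *Relb* passed the test at 3 and 9 months and not at 18 months, and *Nfkb1* and *Rela* passed at no age. The interaction of age with day passed for none of them, so no difference between ages is shown. *Nfkb2* held 4.2 to 12.4 CPM (median 5.18) in naive libraries at 3 months and 1.91 to 28.9 CPM (median 14.1) at day 12, with 6 of 8 above every naive library and 1 below. It rose by a log2 fold change of 1.27 (SE 0.36, adjusted p = 0.00816). At 9 months it rose from a median of 5.29 CPM (4 to 11.9) to 22.1 CPM (7.3 to 54.9), a log2 fold change of 1.78 (SE 0.47, adjusted p = 0.012). The log2 differences within the first and the second collection day were 0.08 and 1.93 at 3 months and 1.26 and 2.14 at 9 months. At 18 months the naive range, 4.08 to 56.1 CPM, took in all 7 day 12 libraries (14.1 to 28.3 CPM), and the log2 fold change was 0.46 (SE 0.39, adjusted p = 0.487). The value of 56.1 CPM came from 1 library, naive female 1, which also held 0 CPM of *Bcl3* and the lowest *Nfkbia* of its group. Its monocyte marker sum was 126 CPM against 13.6 to 31.1 CPM in the other 18-month naive libraries, its endothelial sum 70.9 CPM against 2.22 to 22.7 CPM, and its B cell sum 5.73 CPM against 62.3 to 114 CPM. Their part in its values was not tested. Without it the log2 fold change was 1.17 (adjusted p = 0.0146). In the GENCODE annotation, exons of *Nfkb2* share 531 bases with the lncRNA gene *AC114539.1* and 299 with *Psd* on the other strand. The libraries keep no strand, so the gene of origin of reads from these bases cannot be told. The counts used refGene, in which these overlaps were not examined.

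*Relb* gave 15.4 ± 7.71 CPM in naive libraries at 3 months (SD, n = 7) and 26.6 ± 12.7 CPM at day 12 (n = 8), a log2 fold change of 0.91 (SE 0.29, adjusted p = 0.0194). At 9 months the 5 naive libraries held 0, 20.8, 4.09, 13.3 and 19.7 CPM, and all 7 day 12 libraries lay above them at 24.5 to 53.9 CPM (log2 fold change 1.62, SE 0.53, adjusted p = 0.0425, and 2.68 without naive female 2). At 18 months the ranges overlapped, 10.4 to 41.8 CPM against 16.2 to 32.2 CPM, with a log2 fold change of 0.29 (SE 0.25, adjusted p = 0.49). The log2 differences within the collection days were 0.19 and 1.29 at 3 months and 3.87 and 1.45 at 9 months. Both calls depended on single libraries. At 3 months the call was lost without day 12 female 3 (0.71, adjusted p = 0.0727), day 12 male 4 (0.72, adjusted p = 0.0699) or naive male 2 (0.80, adjusted p = 0.068), and at 9 months it was lost in 10 of 19 fits that left out 1 library (adjusted p up to 0.151).

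*Nfkb1*, which encodes p105 and p50, held group means of 79.7 to 84.4 CPM in naive libraries and of 77.8 to 85.1 CPM at day 12, with log2 fold changes of -0.04, -0.09 and 0.08 and 95% intervals of -0.37 to 0.30, -0.56 to 0.38 and -0.26 to 0.42. *Rela*, which encodes p65, had naive means of 47, 66 and 47.4 CPM and day 12 means of 43.2, 43.8 and 35.8 CPM. Its log2 fold changes were -0.14, -0.63 and -0.40 (adjusted p = 0.704, 0.258 and 0.41), with 4 day 12 libraries below every naive library at each age. The 95% intervals of *Rela* ran from -0.57 to 0.28, -1.32 to 0.07 and -0.98 to 0.18.

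Among the regulators, *Bcl3* changed most. BCL3 is an atypical IκB that sits in the nucleus on p50 or p52 dimers (chr7:19808462-19822770, minus strand). At 3 months the naive libraries held 1.01 to 10.5 CPM (median 5.25) and the 8 day 12 libraries 10.7 to 32.6 CPM (median 16.8), with no overlap. At 9 months the naive females held 0, 2.8 and 8.17 CPM and the naive males 5.02 and 4.25 CPM. At day 12 the females held 20.6, 29.6 and 33 CPM and the males 64.4, 21.9, 20.1 and 26 CPM, again with no overlap. At 18 months 0 to 13.4 CPM (median 6.67) stood against 12 to 49 CPM (median 23.6), and the 2 day 12 libraries inside the naive range, at 12 and 12.5 CPM, were the 2 with naive-level microglia markers at that age. *Bcl3* rose 4.11-fold at 3 months (log2 fold change 2.04, SE 0.39, adjusted p = 0.000162), 7.18-fold at 9 months (2.84, SE 0.57, adjusted p = 0.00127) and 4.68-fold at 18 months (2.23, SE 0.47, adjusted p = 0.00248). The log2 differences within the 2 collection days were 1.35 and 2.58, 4.13 and 2.55, and 1.95 and 2.45 at the successive ages. Without naive female 3 the log2 fold change at 9 months was 3.54. In the GENCODE annotation, only 55 of its 1850 exon bases are shared with an antisense gene, *Gm16175*.

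*Nfkbia* encodes IκBα, the inhibitor that NF-κB itself induces. It was the most abundant member and its change was smaller. At 3 months naive libraries held 158 to 259 CPM (median 237) and day 12 libraries 198 to 394 CPM (median 338), 7 of 8 above every naive one. It rose 1.44-fold (log2 fold change 0.53, SE 0.14, adjusted p = 0.00441). At 9 months 147 to 270 CPM stood against 180 to 409 CPM, with 2 day 12 females at 180 and 188 CPM inside the naive range, and a log2 fold change of 0.43 (SE 0.27, adjusted p = 0.309). At 18 months it rose from 226 ± 68.2 CPM (n = 7) to 341 ± 87.9 CPM (n = 7), a log2 fold change of 0.64 (SE 0.21, adjusted p = 0.0402). The log2 differences within the collection days were 0.61 and 0.46 at 3 months and 0.68 and 0.59 at 18 months. The call at 18 months was lost in 11 of 21 fits with 1 library left out, where the adjusted p reached 0.148.

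*Tnfaip3* encodes A20, a ubiquitin-editing enzyme that shuts off TNF signalling. Its means were 27.4 ± 12.9, 24.5 ± 4.62 and 29.4 ± 8.21 CPM in naive libraries and 41.9 ± 12.2, 41.8 ± 7.31 and 37.5 ± 8.29 CPM at day 12. The log2 fold changes were 0.62 (adjusted p = 0.0565), 0.71 (adjusted p = 0.0812) and 0.36 (adjusted p = 0.317). At 9 months 6 of 7 day 12 libraries were above every naive library. The values at 3 and 9 months passed in DESeq2 (adjusted p = 0.042 and 0.0386).

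*Tnfaip2*, a TNF-inducible gene whose product takes part in membrane tubes between cells, held 12.4 to 45.6 CPM (median 35.9) in naive libraries at 3 months and 51.5 to 107 CPM (median 65) at day 12, with no overlap. It rose there (log2 fold change 0.97, SE 0.22, adjusted p = 0.00115). At 9 months the naive libraries were scattered, at 126, 54, 14.7, 28.1 and 10.5 CPM, and took in all 7 day 12 libraries (52.5 to 118 CPM). The log2 fold change was 1.14 (SE 0.37, adjusted p = 0.0391), but 0.89 (adjusted p = 0.223) without naive male 2. At 18 months it was 0.72 (SE 0.40, adjusted p = 0.246). The log2 differences within the 2 collection days were 1.06 and 1.02 at 3 months, 0.35 and 1.95 at 9 months, and 1.18 and 0.31 at 18 months.

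*Traf1* encodes an adaptor that binds TNF receptor family members and is itself an NF-κB target. It was scarce in naive libraries, at 3 or fewer counts in all 7 at 3 months, all 5 at 9 months and 5 of 7 at 18 months. Summed over libraries, 3 counts stood against 64 at day 12 at 3 months, a ratio of 22.5 after scaling by library size (95% counting interval 7.36 to 112). At 9 months 4 counts stood against 123 (26, 9.89 to 96.8) and at 18 months 31 against 120 (4.29, 2.87 to 6.6). These intervals cover counting error only. Of the 31 naive counts at 18 months, 21 came from naive male 2, the library with the highest naive T cell sum (158 CPM). At least 1 day 12 library stood at 0 CPM at each age, and the others reached 3.64, 7.97 and 7.53 CPM. *Traf1* rose in the quasi-likelihood test at each age (adjusted p = 0.00958, 0.0195 and 0.0296), and its fitted fold depends on the prior. In a fit of naive libraries alone it did not pass the filter on low counts, so it was tested here through its treated libraries. The fitted log2 value went from 3.98 to 4.68 without naive female 1 at 3 months and from 4.30 to 5.64 without naive male 2 at 9 months. The log2 differences within the collection days were 1.30 and 2.17, 2.32 and 2.79, and 1.01 and 1.99 at the successive ages. At 18 months the call was lost in 9 of 21 fits with 1 library left out (adjusted p up to 0.0842).

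**Figure D2:**
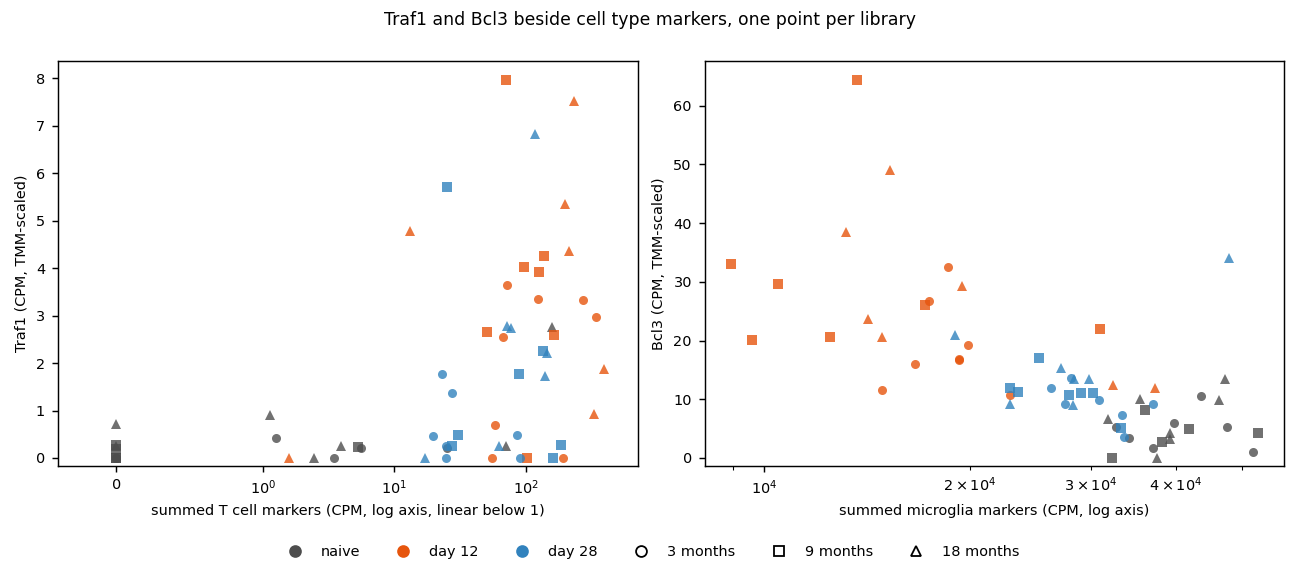
Left, *Traf1* (CPM) against the summed T cell markers (CPM, log axis that is linear below 1), and right, *Bcl3* (CPM) against the summed microglia markers (CPM, log axis), with 1 point per library, colour for the day and shape for the age. Most naive libraries lie at the lower left in the left plot and at the lower right in the right plot, and the 3 day 12 libraries with microglia sums of 31000 to 37300 CPM hold 12 to 21.9 CPM of *Bcl3*.

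**Figure D3:**
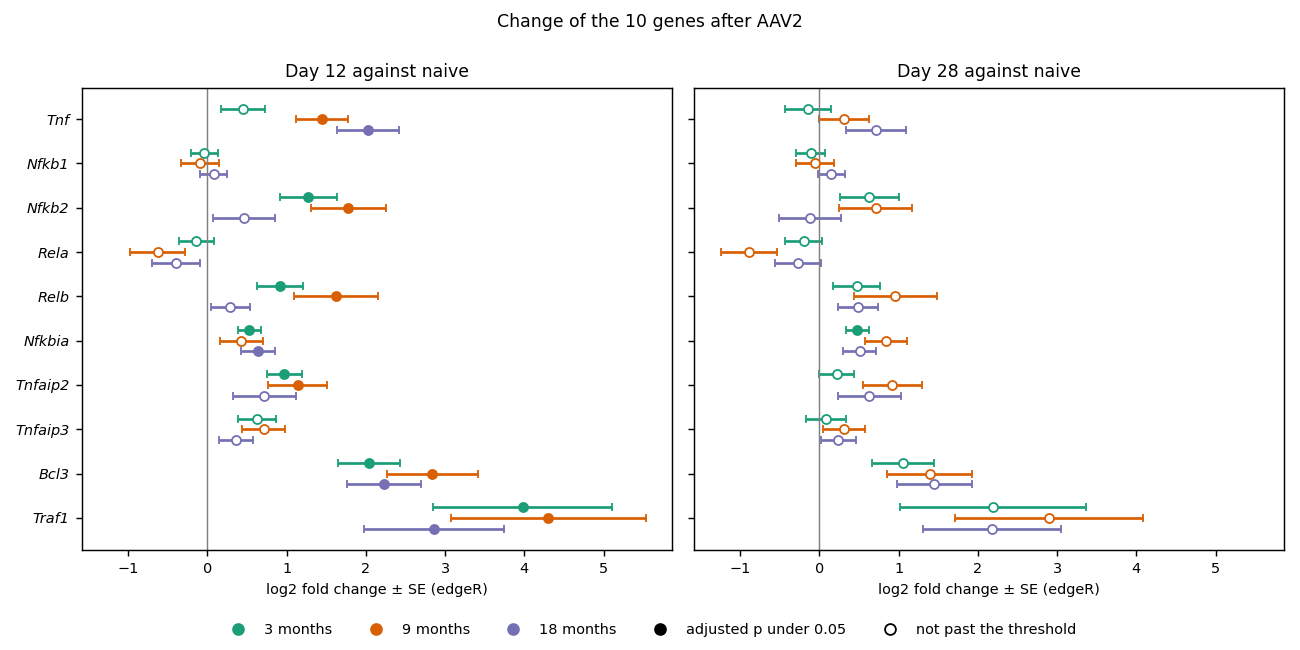
Log2 fold change of each gene against naive at day 12 (left) and day 28 (right), with bars of 1 SE and a colour for each age; filled points had an adjusted p under 0.05 in the quasi-likelihood test. At day 12 filled points lie to the right of 0 in 6, 6 and 4 genes at 3, 9 and 18 months, and at day 28 the single filled point is *Nfkbia* at 3 months.

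By day 28 the means of *Tnfaip2*, *Tnfaip3*, *Bcl3* and *Traf1* lay between those of naive and day 12 at every age, and 1 of 30 tests of the members passed. At 3 months *Nfkbia* rose 1.39-fold against naive, with 275 to 366 CPM in the 7 libraries, all above the highest naive library of 259 CPM (log2 fold change 0.48, SE 0.14, adjusted p = 0.0367). That was 1 of 10 members at 3 months against 4.42% of all genes higher. The call was lost in 11 of 22 fits with 1 library left out, with log2 fold changes of 0.40 to 0.50 and adjusted p-values of 0.0538 to 0.0941. At 9 months 0 of 10 passed, with 5 at an unadjusted p under 0.05, 1 called by DESeq2 and 1.6% of all genes higher. At 18 months 0 of 10 passed, with 3 at an unadjusted p under 0.05, 1 called by DESeq2 and 2.7% of all genes higher. No member passed beyond 2-fold at any age, by edgeR or DESeq2, against 1%, 0.752% and 0.521% of all genes. The medians of the 10 log2 fold changes were 0.34, 0.78 and 0.50, beside -0.00, 0.03 and 0.04 over all genes.

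*Bcl3* at day 28 stood at 9.23 ± 3.21, 11.2 ± 3.49 and 16.5 ± 8.75 CPM against naive means of 4.75 ± 3.17, 4.05 ± 3 and 6.81 ± 4.64 CPM. Its log2 fold changes were 1.05, 1.39 and 1.45, with adjusted p-values of 0.12, 0.193 and 0.0902. The highest value at 18 months, 34 CPM, came from male 4, whose labels give day 28 in the title and day 12 in another field. *Nfkbia* at 9 months held 258 to 592 CPM, 6 of 7 above every naive library, with a log2 fold change of 0.84 (SE 0.27, adjusted p = 0.106). *Tnf* was at 18.3 ± 12.4, 22.5 ± 4.83 and 24 ± 5.96 CPM, with log2 fold changes of -0.14, 0.31 and 0.71 (adjusted p = 0.884, 0.714 and 0.383). *Relb* at 18 months, at 29 ± 6.64 CPM, was not lower than its day 12 level of 25.2 ± 5.32 CPM in its mean (log2 fold change against naive 0.49, adjusted p = 0.351). *Rela* at 9 months had the lowest fitted value, -0.89 (SE 0.35, adjusted p = 0.206). The summed *Traf1* counts of 25, 45 and 76 were 8.58-fold (2.62 to 44.4), 10.6-fold (3.86 to 40.6) and 2.61-fold (1.7 to 4.1) the naive sums after scaling by library size. The T cell lists at day 28 had medians of 24.8, 88.6 and 76.7 CPM.

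The study also compared the sexes. The interaction of sex with day was past the threshold (adjusted p under 0.1) for 0 of 10 members in each of the 6 tests. The share of all genes past it was 0.0583%, 0.00809% and 0% at day 12 and 0.00833%, 0% and 0% at day 28 at the successive ages. DESeq2 called 0 members in each test too. At an unadjusted p under 0.05 the counts were 0, 1 and 0 at day 12 and 0, 2 and 1 at day 28. The 1 at day 12 was *Tnfaip2* at 9 months, where the change in males exceeded that in females by 2.12 on the log2 scale (SE 0.74, adjusted p = 0.976), and the naive values behind it are the scattered ones given above. *Tnf* at 18 months held 47.9 ± 28.7 CPM in day 12 females (n = 4) and 74.3 ± 36.6 CPM in males (n = 3), and its interaction was 1.41 (SE 0.75, adjusted p = 0.755). With 2 to 4 libraries per sex these intervals are wide, and the females at 18 months include both libraries with naive-level microglia markers.

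Among the ages, *Tnf* at day 12 was the 1 member past the test. Ages were compared within a day at an adjusted p under 0.1. At day 12 *Tnf* was 2.23-fold higher at 18 than at 3 months, with means of 59.2 ± 32.5 CPM (n = 7) and 27.9 ± 11.5 CPM (n = 8), a log2 fold change of 1.16 (SE 0.30, adjusted p = 0.0726). This was 1 of 10 members against 1.68% of all genes. The ranges overlapped, 14.1 to 102 CPM against 15.7 to 49.7 CPM. The call was lost in 12 of 22 fits that left out 1 library, libraries of all 3 ages among them, with adjusted p-values up to 0.267. It was kept without the 3 libraries with naive-level microglia markers (1.39, adjusted p = 0.002). No 3-month library is among these, and 18-month females 1 and 2 held 14.1 and 37.4 CPM, under the mean of their group. Their omission therefore favours the difference and is no check of it. The difference was of like size in females (1.13, SE 0.42, adjusted p = 0.258) and males (1.18, SE 0.44, adjusted p = 1), in fits where 0.0341% and 0% of all genes passed. At 9 against 3 months *Tnf* differed by 0.88 (SE 0.30, adjusted p = 0.2), *Nfkb2* by 0.89 (adjusted p = 0.29) and *Bcl3* by 0.72 (adjusted p = 0.343). In that comparison 0 of 10 passed, 3 had an unadjusted p under 0.05, DESeq2 called 0, and 2.01% of all genes passed.

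Whether the response itself differed with age was tested as an interaction of age with day over all 62 libraries. The change of *Tnf* from naive to day 12 was larger by 1.55 on the log2 scale at 18 than at 3 months (SE 0.47, 95% interval 0.64 to 2.47), which did not pass (adjusted p = 0.149). DESeq2 gave an adjusted p of 0.0712, and the edgeR fit without the 3 libraries gave 1.83 (adjusted p = 0.0305). That omission favours a larger value, since it takes out 18-month day 12 libraries below their group mean and no 3-month library. At 9 against 3 months the 95% interval of that difference was 0.04 to 1.97 (SE 0.49, adjusted p = 0.798). 0 of 10 members passed for day 12 in either interaction, against 0.0368% (9 months) and 0.155% (18 months) of all genes, with 1 member, *Tnf*, at an unadjusted p under 0.05 in each, and DESeq2 called 0 and 1. For day 28, 0 members passed, 0 had an unadjusted p under 0.05, DESeq2 called 0, and 0% and 0% of all genes passed.

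In naive microglia and at day 28 no member was called between ages. In naive libraries *Traf1* was too scarce to be tested, and 0 of the other 9 passed at 9 against 3 months or at 18 against 3 months, where 0% and 0.0651% of all genes passed. At an unadjusted p under 0.05 there were 0 and 1, the 1 being *Nfkb2* (1.29, SE 0.48, adjusted p = 1), with naive female 1 at 18 months at 56.1 CPM. At day 28 the shares of all genes were 0% for 9 against 3 months and 0.22% for 18 against 3 months, and 0.118% in females and 0.00845% in males at 18 months. The members at an unadjusted p under 0.05 numbered 1 and 3, and 4 and 1 within the sexes, and DESeq2 called 0 in each of these fits of naive and day 28 libraries. The largest of them over both sexes was *Bcl3*, higher at 18 months by 0.77 (SE 0.32, adjusted p = 0.626), followed by *Relb* at 0.60 (SE 0.21, adjusted p = 0.398). The paper, which used DESeq2, names *Tnfaip2* among the genes higher in 18-month than in 3-month females at day 28, at an adjusted p under 0.1. Here, without 18-month day 28 female 1, neither edgeR nor DESeq2 called it. Its means ran in the same direction, 68.7 ± 12.5 CPM (n = 3) at 18 months and 32.3 ± 9.23 CPM (n = 4) at 3 months. The count of members called in these females went from 0 to 1 under some settings, among them keeping that female.

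In the wider pathway more genes rose than fell at day 12, and most did not pass. The lists were chosen with earlier results of these data known, so they are no independent support. Beside the members, 95 genes in 5 lists covered subunits, inhibitors and feedback genes, IKK and adaptor genes, TNF superfamily ligands and receptors, and targets. At day 12, 30 of 86 tested rose and 3 fell at 3 months, 32 of 89 rose and 2 fell at 9 months, and 27 of 87 rose and 2 fell at 18 months, to be read against the shares of all genes given above. Their median log2 fold changes were 0.39, 0.57 and 0.51. At day 28, 10 of 86, 7 of 89 and 12 of 87 rose and 1, 0 and 2 fell, with medians of 0.16, 0.26 and 0.30. Of all genes 4.42%, 1.6% and 2.7% were higher at day 28. In either direction 776 of 12002, 274 of 12364 and 508 of 11907 were called. With the members counted in, the target list moved most at day 12, with 17 of 32, 19 of 34 and 17 of 32 higher and 1 lower at each age. Of the 5 subunits 2, 2 and 0 were higher, and of the 13 inhibitors and feedback genes 6, 5 and 5. Beside these day 12 counts by list, 13.1%, 8.68% and 8.94% of all genes were higher and 10.7%, 6.11% and 5.48% lower.

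The named genes of these lists are those that passed in one direction at all 3 ages with the largest changes. *Ikbke*, the kinase IKKε of the interferon and NF-κB pathways, had 0 counts in all 7 naive libraries at 3 months and 1782 counts at day 12, at least 626-fold higher with 3 counts over the naive group as the floor, and 170 counts at day 28 (at least 58.4-fold). It passed the filter on low counts through its treated libraries. At 9 and 18 months its summed ratio at day 12 was 89.8 (95% counting interval 54.3 to 161) and 65.1 (37.8 to 123). Of the 15 and 13 naive counts behind these ratios, 14 came from naive male 1 at 9 months and 12 from naive female 2 at 18 months. Without those libraries the fitted log2 value went from 7.98 to 9.51 and from 6.53 to 9.14, and at 18 months it was 7.23 without naive male 3 and 5.80 without day 12 female 3. At these ages it still held 11.6 ± 5.01 and 18.3 ± 16.8 CPM at day 28. *Map3k8*, the kinase TPL2 that is held by p105, rose from 26.8 ± 8.48 to 72.6 ± 16.2 CPM at 3 months, from 48.5 ± 40.1 to 93.4 ± 17.2 CPM at 9 months and from 24 ± 9.28 to 86.2 ± 32.2 CPM at 18 months (adjusted p = 5.75e-06, 0.014 and 4.17e-05), with the 9-month call lost in 2 of 19 fits that left out 1 library. *Birc3*, a ubiquitin ligase of the TNF receptor complex, rose by 0.62, 1.23 and 0.79 (adjusted p = 0.0174, 0.0413 and 0.0378). Its call was lost in 6 of 19 fits with 1 library left out at 9 months (adjusted p up to 0.177), and at 18 months in 10 of 21 such fits and under 5 of 10 other settings (adjusted p up to 0.254). *N4bp1*, an inhibitor of NF-κB activation, rose by 0.97, 1.27 and 0.98 (adjusted p = 0.000517, 0.0158 and 0.0435). Its call was lost in 3 of 19 such fits at 9 months (adjusted p up to 0.0703), and at 18 months in 11 of 21 (adjusted p up to 0.108) and under 2 of 10 other settings.

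Among the receptors, *Cd40*, a TNF receptor family member that feeds the non-canonical arm, went from 6.14 ± 4.34 to 40.5 ± 17.3 CPM at 3 months and from 4.66 ± 4.54 to 95.8 ± 66.8 CPM at 18 months (log2 fold changes 2.58, 4.36 and 4.43 at 3, 9 and 18 months, adjusted p = 1.13e-06, 2.02e-05 and 6.89e-05), with 5.20 at 9 months without naive female 2. The death receptor gene *Fas* rose by 2.18, 3.23 and 3.61 (adjusted p = 8.46e-05, 0.00443 and 0.0015), with 6.00 without naive female 2 and 3.85 without naive male 2 at 9 months, and 5.92 without naive male 4 at 18 months. *Tnfrsf13b*, which encodes the BAFF and APRIL receptor TACI, fell by 0.63, 0.86 and 0.55 (adjusted p = 0.00773, 0.00923 and 0.0241), as the microglia markers did. That call was lost in 1 of 19 fits with 1 library left out at 9 months and in 3 of 21 at 18 months. Of the targets, the chemokine genes *Ccl5* and *Ccl2* rose by 4.69, 5.42 and 3.92 and by 2.61, 4.63 and 4.52. Without naive male 1 at 9 months the values were 6.02 and 5.33, and without day 12 female 4 at 18 months *Ccl2* was at 3.70. *Ccl5* reached 2530 ± 672 CPM at day 12 at 3 months from 96 ± 49 CPM. T cells, whose markers were higher in the same libraries, are known to express it, and their part in its values was not tested. *Il6*, a cytokine gene among the classical NF-κB targets, went the other way, from 20.6 ± 7.39 to 1.22 ± 1.12 CPM at 3 months, 21.6 ± 13.9 to 0.841 ± 1.26 CPM at 9 months and 21.4 ± 13.8 to 2.83 ± 3.52 CPM at 18 months (adjusted p = 2e-06, 0.000514 and 0.00897). The day 12 log2 fold changes of -4.09 at 3 months and -3.19 at 18 months went to -4.82 without day 12 male 3 and to -4.17 without day 12 male 1. At day 28 *Il6* held 2.16 ± 2.41, 2.93 ± 1.83 and 0.911 ± 1.65 CPM, with log2 fold changes of -3.41, -2.87 and -4.72 (adjusted p = 0.000219, 0.07 and 0.00302). The immediate early genes, which respond to tissue handling, had summed medians of 696, 672 and 672 CPM in naive libraries and 526, 549 and 627 CPM at day 12, and their part in the *Il6* values was not tested.

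**Figure D4:**
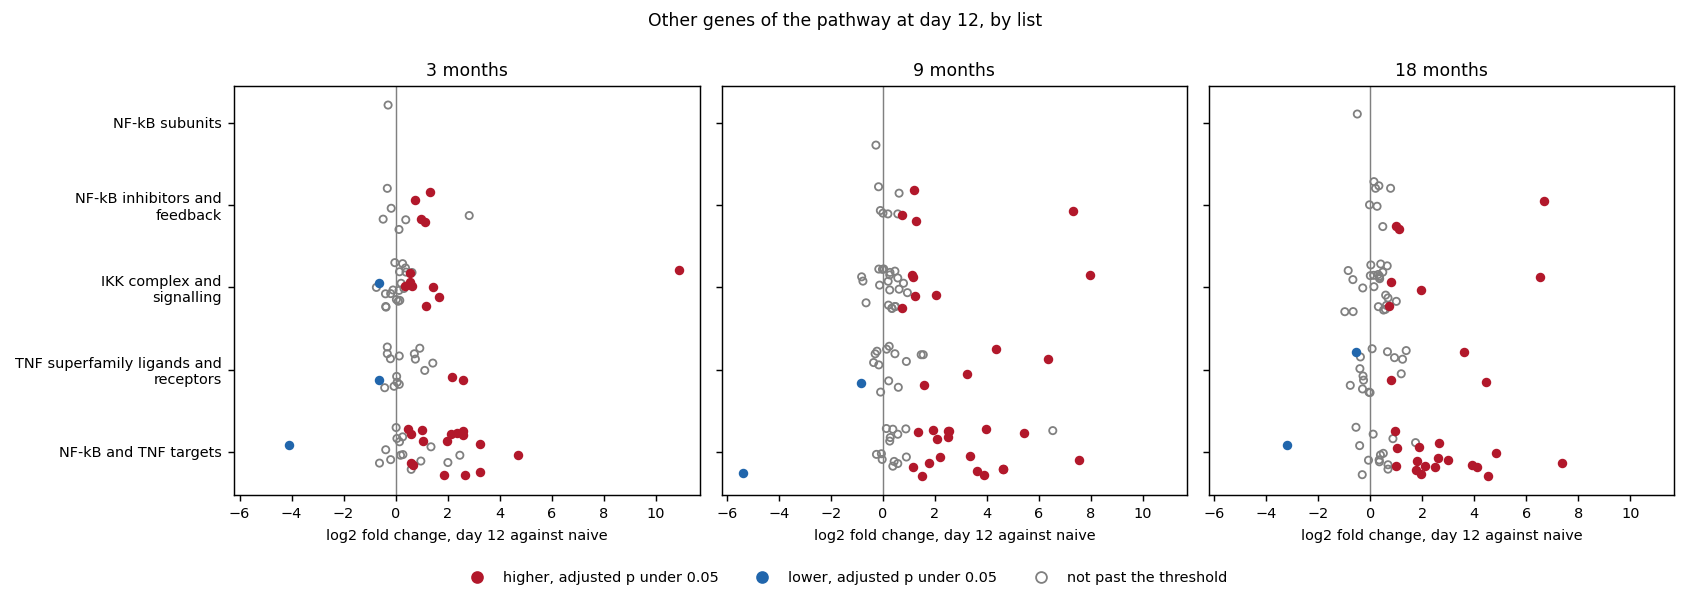
Log2 fold change at day 12 against naive (x axis) for the tested genes of the 5 lists other than the 10 members, 1 panel per age, with points spread vertically within a list; red points were higher and blue points lower at an adjusted p under 0.05. Most coloured points lie to the right of 0, *Il6* is the leftmost point of the target list, and the fitted value of *Ikbke* at 3 months, 10.88, depends on the prior because its naive libraries are at 0.

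Finally, the genes most like each member were sought by the Pearson correlation of log2 CPM over the 18 group means, among 13583 other genes. These are descriptions, since the means share the libraries' depth and cell makeup. *Bcl3* was most like *Gdap10*, *Kif2c* and *Sp140* (r = 0.96 each), and among the members themselves the closest pair was *Bcl3* and *Traf1* (r = 0.85). *Traf1* itself was most like *Themis*, *Sh2d2a* and *Cd6* (r = 0.92 each), which T cells are known to express. *Traf1* was at 3 or fewer counts in every naive library at 3 and 9 months, and the part of T cells in its values was not tested. *Tnf* was most like *Pgk1* (r = 0.93), *Tk1* and *Herc6* (r = 0.92), *Tnfaip2* like *Lrrk1* (r = 0.94), *Relb* like *Exoc4* (r = 0.92), *Nfkbia* like *Slamf6* and *Ctss* (r = 0.91) and *Nfkb2* like *Itgam* (r = 0.90). *Nfkb1*, *Rela* and *Tnfaip3* had no gene above 0.86.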

How the data were processed

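Each sample was tdTomato-positive microglia from 1 retina, either naive or taken 12 or 28 days after intravitreal AAV2. Whole transcriptomes were read after SMART-Seq v4 amplification and an unstranded Nextera XT library. Per the submitters' processing notes and the study's methods, reads were demultiplexed with bcl2fastq 2.20, aligned to mm10 with STAR 2.7.8a and counted per refGene gene with featureCounts. The authors deposited whole-number gene counts in an uncorrected form (64 libraries) and a form corrected for the 2 days of collection with ComBat-seq (63 libraries), and the corrected counts were used here. Correction was made before the tests, so the adjusted values carry the authors' model of the collection day, of which 27 and 35 libraries used here came from the first and second.

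The sources were 62 libraries, grouped by age, sex and day from the labels. The 18-month day 28 female 1 was left out by rule and the 9-month day 28 male 1 is in the uncorrected table alone. For these 2 libraries the sex-linked genes oppose the labelled sex. The 18-month day 28 male 4 has day 28 in its title and day 12 in another field, and was kept at day 28. No 2 libraries held identical counts.

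Genes passing filterByExpr were scaled by TMM and tested in edgeR 4.0.16 (R 4.3.3) by the quasi-likelihood test, in 1 fit per age for days and sexes, 1 fit per day for ages, and 1 fit of all libraries for interactions of age and day. The standard error was the log2 fold change over the square root of F. Adjusted p-values follow Benjamini and Hochberg over all genes tested, with thresholds of 0.05 for days and 0.1 for ages and interactions. CPM were TMM-scaled, and log2 CPM used a prior count of 2. Gene positions, exon lengths and overlaps came from the GENCODE basic annotation. CPM per kb therefore divide counts made on refGene by exon lengths from GENCODE. DESeq2 1.42.0, DESeq2 size factors, no filter, the uncorrected counts, single collection days, the replicate number as a block, 1 fit of all libraries, other placements of the doubtful libraries and the omission of each library were tried as alternatives. The omission of 3 day 12 libraries was added after seeing the data. Steps were tested on simulated counts. Intervals on summed counts are exact conditional ones.

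The 10 members, the lists and the tests were chosen with earlier results of these data known. In the text stand all members, up to 3 other genes per list past the test at day 12 in one direction at all 3 ages with the largest mean change, and the 3 genes most correlated with each member, of which some are given.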

Additional observations from a re-analysis of the deposited data

Results flagged for a closer look

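Among 90 sets of 4 libraries of 1 gene, age, sex and day, 12 held a library whose gap to its nearest neighbour was past Dixon's 95% limit, where chance gives about 1 in 20. For *Bcl3* these were 3-month day 12 female 4 (10.7 CPM, others 16 to 16.8), 9-month day 12 male 1 (64.4 CPM, others 20.1 to 26), 9-month day 28 female 3 (17.1 CPM, others 11 to 11.2) and 18-month day 28 male 4 (34 CPM, others 13.4 to 15.3). The same 18-month male held 10.8 CPM of *Tnfaip2* against 62.2 to 70.5 in the others. It is the library with conflicting day labels, and its microglia marker sum was 47800 CPM, the highest of its group.

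For *Tnfaip3* the 3-month female libraries naive 4 (53.7 CPM, others 19.7 to 25.4), day 12 replicate 1 (58.7 CPM, others 43.2 to 44.6) and day 28 replicate 4 (33.9 CPM, others 25.6 to 26.9) stood out. For *Nfkb1* they were 3-month day 28 female 1 (128 CPM, others 71.2 to 79) and 9-month day 28 female 4 (88.2 CPM, others 61.3 to 65.5), and for *Relb* 18-month day 12 female 4 (16.2 CPM, others 25.9 to 26.8). *Traf1* in 3-month naive female 1 (0.21 CPM, others 0) is under the level of 3 counts.

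*Tnf* at day 12 differed between 18 and 3 months by a tested log2 fold change of 1.16, as described above.

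The 2 libraries left out held several members above the naive range of their labelled age. Since their sex-linked genes oppose their labels, their labelled ages are uncertain too. In the 18-month day 28 female 1 these were *Tnf* at 46.3 CPM (naive 6.14 to 34.8), *Nfkbia* at 311 CPM (naive 90.1 to 295) and *Bcl3* at 34.4 CPM (naive 0 to 13.4). In the 9-month day 28 male 1, on uncorrected counts, they were *Nfkb2* at 13.1 CPM (naive 4.11 to 11.9), *Relb* at 23.2 CPM (naive 0 to 18.1), *Nfkbia* at 295 CPM (naive 117 to 278), *Tnfaip3* at 41.8 CPM (naive 15.1 to 28.7), *Bcl3* at 21.9 CPM (naive 0 to 6.23) and *Traf1* at 1.76 CPM (naive 0 to 0.448).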

How the results depend on the processing

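Of the 17 calls of members against naive, 8 passed under every alternative with a test: *Bcl3* and *Tnf* at day 12 at 9 and 18 months, and *Nfkb2*, *Nfkbia*, *Bcl3* and *Traf1* at 3 months. *Traf1* passed the filter on low counts through its treated libraries, so its calls among these are no separate support. Of the 43 values not called, 35 were called under no alternative, and no member's called direction turned. For *Bcl3* the log2 fold change ran from 1.84 to 2.29, 2.55 to 3.54 and 1.93 to 2.69 at the successive ages. Depth limits *Traf1*, which was at 3 or fewer counts in every naive library at 3 and 9 months.

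For the member counts, 229 recomputed values stayed within 1.5 times and 39 did not; the cause was not tested. Members changed at day 12 at 18 months fell from 4 to 2 on uncorrected counts with or without a collection day term. Members beyond 2-fold at day 12 went from 1 to 0 at 3 months with DESeq2 and on uncorrected counts without the term, and at 18 months with DESeq2 or with the left-out female kept. They went to 2 at 9 and at 18 months with no filter, in 1 fit of all libraries and without the 3 libraries that stand apart. Members changed at day 28 went from 1 to 0 at 3 months with no filter, on uncorrected counts without the term and in 1 fit. At 9 months they went from 0 to 1 with DESeq2 and in 1 fit and to 2 with no filter, and at 18 months from 0 to 1 with DESeq2, no filter or the left-out female kept. Between ages, the 1 call at 18 against 3 months at day 12 went to 0 on uncorrected counts with or without the term and with 18-month male 4 placed at day 12. Counts of 0 went to 1 with no filter for 9 against 3 months at day 12 and at day 28, for day 28 females at 18 against 3 months, for the change by day 12 at 18 against 3 months and for the sex difference at day 12 at 9 months. They went to 1 without the 3 libraries for 9 against 3 months at day 12, for day 12 females and for the change by day 12 at 18 months, and with DESeq2 for that change. They also went to 1 with male 4 at day 12 for 18 against 3 months at day 28 over both sexes and in females, and with the left-out female kept for the same females.

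With 1 library left out in turn, members changed ranged from 5 to 7, 3 to 6 and 2 to 4 at day 12 and from 0 to 1 at day 28 at each age, and members beyond 2-fold at day 12 from 0 to 2 at each age. The count at 9 months was 3 without naive male 1 or 2, where the lone sample is assumed to vary like the other groups. The counts for 18 against 3 months ranged from 0 to 1 at day 12, at day 28, in day 28 females and for the change by day 12.

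Replicate numbers do not pair the libraries. Deviations of same-numbered libraries correlated at a mean r of -0.019 (n = 135 pairs, -0.267 to 0.147), against 0.00648 for other pairs. With the replicate number as a block, the day 28 count at 3 months went from 1 to 0, the count beyond 2-fold at 18 months from 1 to 0 and the age count for *Tnf* from 1 to 0 (1.16, adjusted p = 0.117). *Relb* (adjusted p = 0.0602) and *Traf1* (0.0598) at 9 months and *Nfkbia* at 18 months (0.0541) lost their calls.

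Over all genes, calls at day 28 went from 776 to 367 on uncorrected counts without the term and 377 in 1 fit at 3 months. At 9 months 274 became 605 with DESeq2, 657 with no filter, 543 in 1 fit, 150 on uncorrected counts without the term and 142 with the block, and at 18 months 508 became 279 and 321 under the last 2. Day 12 calls at 9 months went from 1828 to 1180 on uncorrected counts without the term. Age calls at 18 against 3 months at day 12 went from 197 to 12 there, 100 with the term and 462 with DESeq2, and those of the change by day 12 from 21 to 221 with DESeq2, 396 with no filter and 313 without the 3 libraries.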
